A study of Homo sapiens with 6 samples.

Results

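The genes described here are 37 genes of the NRF2, glutathione and antioxidant system, chosen by name, out of 34905 genes to which estimated counts could be summed. HMOX1 and the ferritin genes were not on the list. They were measured in THP1, a monocytic cell line established from human acute myeloid leukaemia, by sequencing of polyadenylated RNA. The 6 libraries carry 3 group labels with n = 2 each. ALKBH5 rescue is the hairpin knock-down with ALKBH5 put back, shALKBH5 is the hairpin knock-down of ALKBH5, and shCtrl is the control hairpin in cells whose genotype is labelled wild-type. ALKBH5 is an enzyme that removes the m6A mark from RNA. All cells were THP1 grown in RPMI-1640 with serum, and neither the hairpin sequences nor the rescue construct or number of clones is described in the labels. Each title also carries a replicate number, 1 or 2, so each number holds 1 library of each group. The labels state neither what the number stands for nor whether replicates were separate cultures. The p-values therefore cover the spread among the 6 libraries alone, part or all of which may be technical.

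NRF2, encoded by NFE2L2, is a transcription factor that the adaptor KEAP1 hands to a ubiquitin ligase for destruction. Oxidants and electrophiles modify KEAP1 and release NRF2, which pairs with a small MAF protein on antioxidant response elements near genes for glutathione synthesis, peroxide removal, quinone reduction and NADPH supply. Myeloid cells make superoxide as part of host defence and keep this system at hand to limit damage to themselves.

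The targeted gene went with the replicate number and not with the group label. ALKBH5 stood at 968 CPM in the library labelled ALKBH5 rescue replicate 2, 1003 CPM in that labelled shALKBH5 replicate 2 and 1097 CPM in that labelled shCtrl replicate 2. Among those numbered 1 it was at 13.6 CPM in that labelled ALKBH5 rescue, 12.4 CPM in that labelled shALKBH5 and 14.6 CPM in that labelled shCtrl. CPM are counts scaled by a library size that was taken over the genes passing the filter on low counts and adjusted by TMM factors. In all, the libraries held 14534386 to 24857373 estimated counts. All 10 markers of monocytic leukaemia cells passed the filter on low counts, with 3 called higher and 3 lower in number 2. Their summed level was 3079 to 3517 CPM in number 2 and 2884 to 3152 CPM in number 1. LYZ was the largest part, at 1251 to 1453 CPM in number 2 and 898 to 1006 CPM in number 1. Without overlap, CD33, LYZ and CD68 lay higher in number 2 and ITGAM, CD14 and MPO lower. MPO was low in both, at 1.63 to 1.70 CPM in number 2 and 2.40 to 2.97 CPM in number 1. Of the T and NK cell markers 2 of 6 passed the filter, and CD3D and CD2 were at 0. The sum was 18.2 to 22.5 CPM in number 2 and 21.9 to 24.8 CPM in number 1. NKG7 held most of it, at 14.2 to 18.3 CPM in number 2 and 18.6 to 20.9 CPM in number 1. The B cell markers, 3 of 5 of which passed, summed to 11.3 to 13.5 CPM in number 2 and 6.95 to 8.68 CPM in number 1, and 2 of them were called higher. No erythroid or platelet marker passed. They summed to 0.123 to 0.262 CPM in number 2 and 0.261 to 0.40 CPM in number 1, with HBB, HBA1 and PF4 at 0. Of the epithelial and fibroblast markers 3 of 7 passed at sums of 1.35 to 2.15 CPM in number 2 and 1.88 to 2.65 CPM in number 1, with KRT19 and COL3A1 at 0. The B cell sum did not overlap between the numbers, while the other 4 sums did, and the part of any marker's cells in the results that follow was not tested. In RNA from a whole culture, fewer cells that express a gene and less RNA of it per cell cannot be told apart.

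All 37 genes passed the filter on low counts, with 102 to 19906 estimated counts per gene and library. On the length-corrected TPM scale, which allows levels of different genes to be compared, GPX1 was highest at 1019 ± 66.2 TPM (SD, n = 6 libraries), followed by PRDX1 at 665 ± 158 TPM and SOD2 at 541 ± 135 TPM. GPX1 is the cytosolic glutathione peroxidase, PRDX1 a thioredoxin-dependent peroxidase and SOD2 the mitochondrial superoxide dismutase. The lowest were AKR1C3 at 15.7 ± 2.11 TPM, OSGIN1 at 10.95 ± 3.31 TPM and the glutathione conjugate exporter ABCC1 at 10.5 ± 1.64 TPM. The genes of both subunits of glutamate-cysteine ligase, which starts glutathione synthesis, stood close together at 18.0 ± 5.01 TPM for GCLM and 17.8 ± 3.64 TPM for GCLC. The difference is smaller than their SD over all libraries, which includes the number difference described below. These sums hold transcripts without a coding sequence too, GCLM-203 with 39.0% of GCLM and GCLC-211 with 25.9% of GCLC.

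**Figure D1:**
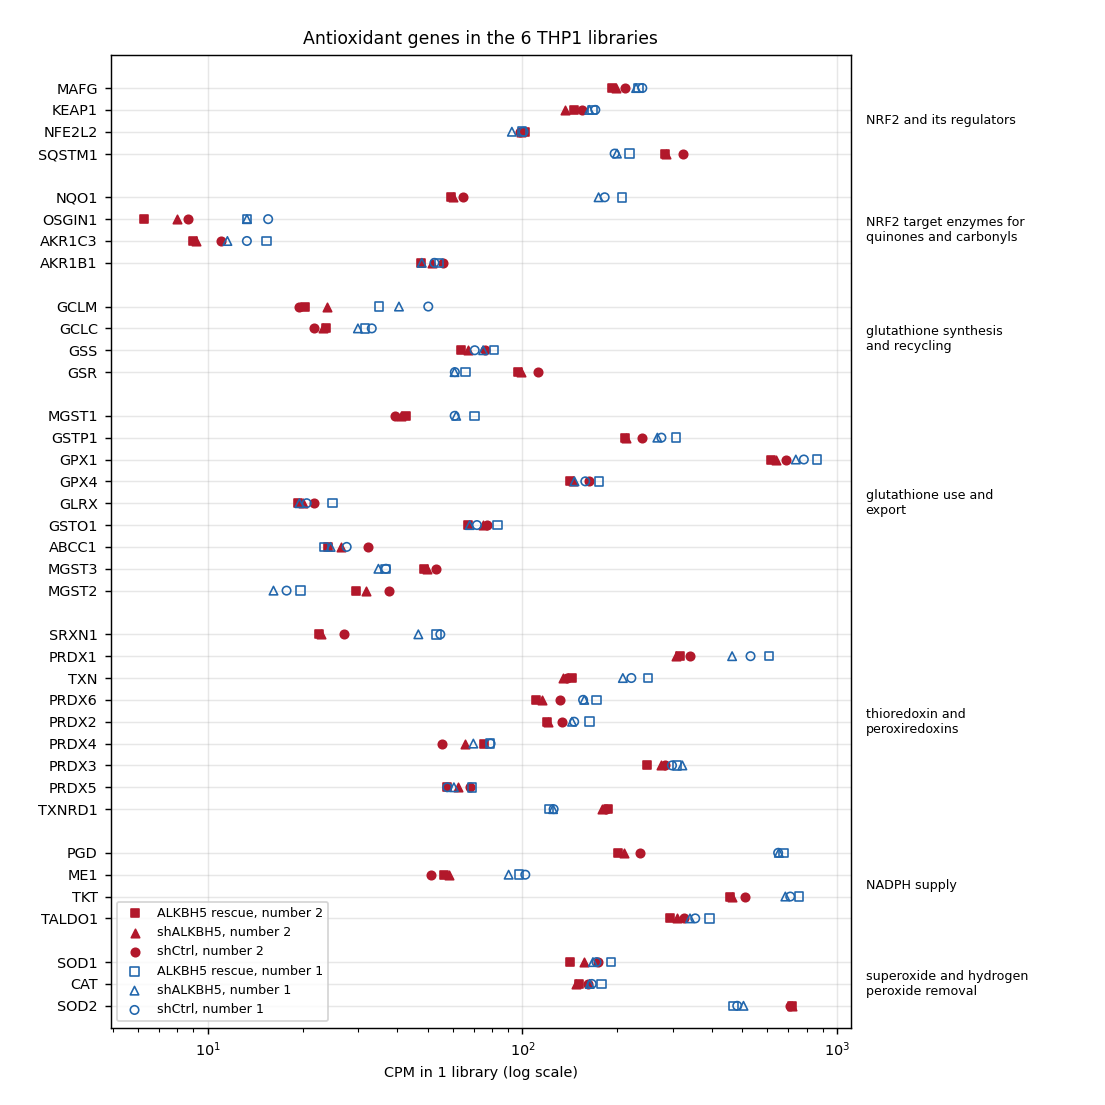
CPM of the 37 genes in each of the 6 libraries on a log axis, grouped by role, with filled red symbols for the libraries numbered 2 and open blue symbols for those numbered 1. Squares are ALKBH5 rescue, triangles shALKBH5 and circles shCtrl. NQO1 lies at 59.4 to 64.8 CPM in number 2 and at 175 to 207 CPM in number 1, while SOD2 lies at 710 to 718 CPM in number 2 and at 468 to 504 CPM in number 1, and NFE2L2 overlaps.

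The first question was how these genes differ between the libraries numbered 2 and those numbered 1, with the group kept as a term. Of the 37 genes, more were lower than higher in number 2. This holds for this list, which was chosen with earlier results of these data known. The 71 further pathway genes tested, described below, gave 14 higher and 15 lower. Mean CPM was 3.06-fold lower for NQO1, 3.05-fold lower for PGD, 2.13-fold lower for SRXN1 and 1.97-fold lower for GCLM, whereas MGST2, GSR, TXNRD1, SOD2, SQSTM1 and MGST3 were higher. The gene for NRF2 itself differed by less than the spread between libraries. With edgeR's quasi-likelihood test, adjusted by Benjamini-Hochberg over all genes tested, 23 of 37 genes (62.2%) passed an adjusted p of 0.05, against a background of 45.4% of 14497 genes tested. Lower in number 2 were 17 of the 37 genes (45.9%), where the background was 22.6%, and 6 (16.2%) were higher, where the background was 22.8%. The median log2 fold change, number 2 over number 1, was -0.22 over the 37 genes and 0.01 over all genes tested. For 27 genes (73.0%) the 3 libraries of one number did not overlap the 3 of the other, as was the case for 57.7% of all genes tested. Without the library labelled shALKBH5 replicate 1 the calls fell to 3915 among all genes and to 16 among the 37, and without that labelled shALKBH5 replicate 2 to 4030 and 16.

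**Figure D2:**
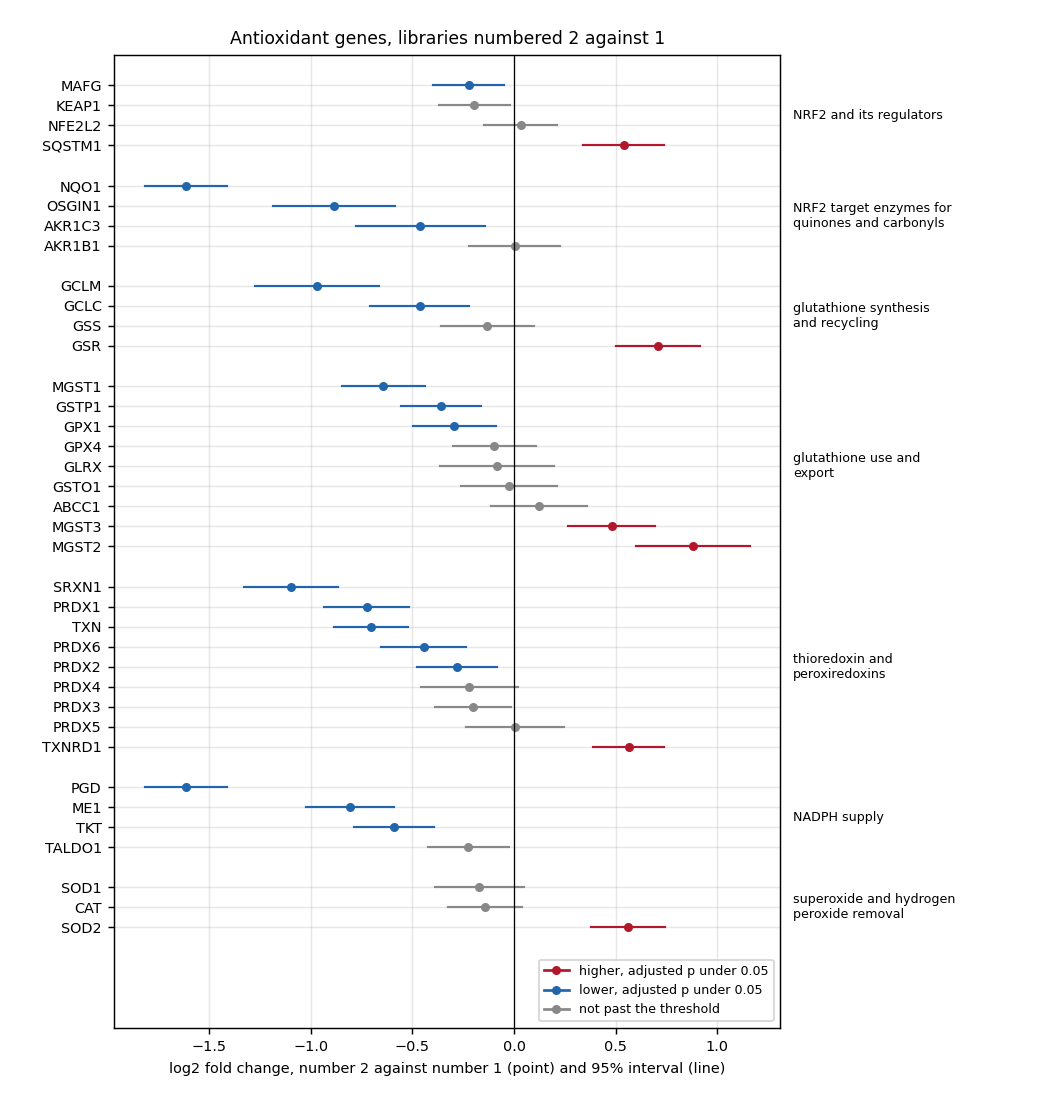
Log2 fold change of each of the 37 genes in the libraries numbered 2 against those numbered 1 (points) with its 95% interval (lines), grouped by role. Blue marks genes lower in number 2 at an adjusted p under 0.05, red those higher and grey the rest. The points run from -1.61 for PGD and NQO1 to 0.88 for MGST2, and 17 are blue, 6 red and 14 grey.

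Of NRF2 and its regulators, 1 of 4 was higher (25%, background 22.8%) and 1 lower (25%, background 22.6%) in number 2, near the background. NFE2L2 (ENSG00000116044.15, GRCh38 chromosome 2, 177227595 to 177392697, minus strand) had 102, 99.2 and 98.5 CPM in the libraries numbered 2 labelled ALKBH5 rescue, shALKBH5 and shCtrl, and 99.8, 92.5 and 101 CPM in the same groups of number 1. The numbers overlapped, and the log2 fold change was 0.03 (SE 0.08, 95% interval -0.15 to 0.21, adjusted p = 0.765 by edgeR, n = 3 per number). In the same sequence of groups, which is kept for every gene below, KEAP1 (chromosome 19, 10486120 to 10503741, minus strand) had 146, 137 and 155 CPM in number 2 and 167, 163 and 170 CPM in number 1. All 3 libraries numbered 2 lay below all of number 1, but the log2 fold change of -0.19 (SE 0.08) did not pass (adjusted p = 0.0662 by edgeR). MAFG, a small MAF partner of NRF2, had 193, 198 and 212 CPM in number 2 and 234, 230 and 240 CPM in number 1. Its values did not overlap either, and its log2 fold change of -0.22 (SE 0.08) passed at an edgeR adjusted p of 0.0395. This call was lost under 10 of 14 alternatives, among them no filter (adjusted p = 0.098), protein-coding transcripts only (0.0591) and limma on deposited TPM (-0.13, 0.25). The 14 include leaving out each of the 6 libraries, and these omissions come in near-equal pairs, as described below, so the tallies hold fewer separate checks. SQSTM1 encodes p62, a selective autophagy receptor that binds KEAP1 and is itself induced by NRF2. It had 285, 286 and 324 CPM in number 2 and 219, 200 and 196 CPM in number 1, a log2 fold change of 0.54 (SE 0.09, adjusted p = 0.00112 by edgeR), higher in number 2 in every group.

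Of 3 reductases of quinones and carbonyls and the NRF2 target OSGIN1, listed together, 3 of 4 genes (75%, background 22.6%) were lower in number 2. These were NQO1, AKR1C3 and OSGIN1. NQO1 (ENSG00000181019.12, chromosome 16, 69706996 to 69726951, minus strand), the quinone reductase most used as a readout of NRF2, had 59.4, 60.1 and 64.8 CPM in number 2 and 207, 175 and 183 CPM in number 1. The highest library numbered 2 was far below the lowest numbered 1, and mean levels of 61.4 ± 2.93 CPM in number 2 and 188 ± 17.1 CPM in number 1 (SD, n = 3 each) differ 3.06-fold. The log2 fold change was -1.61 (SE 0.09, 95% interval -1.82 to -1.41, adjusted p = 5.04e-06 by edgeR). OSGIN1, a growth inhibitor induced by oxidative stress, had 6.27, 7.98 and 8.67 CPM in number 2 and 13.3, 13.3 and 15.5 CPM in number 1, with no overlap. Its log2 fold change was -0.89 (SE 0.13, adjusted p = 0.000695 by edgeR). The aldo-keto reductases AKR1C3 and AKR1B1 were at -0.46 (SE 0.14, adjusted p = 0.0245 by edgeR) and 0.00 (SE 0.10). AKR1C3 has near-identical relatives, so its estimated counts are uncertain, and it lost its call under 6 of 14 alternatives, while AKR1B1 had 47.5, 51.7 and 56.0 CPM in number 2 and 54.2, 47.9 and 52.5 CPM in number 1 and overlapped.

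The deposited tables also split NQO1 by transcript. The leading protein-coding transcript NQO1-206 was at 44.8 to 48.9 TPM in number 2 and at 117 to 141 TPM in number 1. NQO1-207, annotated as retaining an intron, was at 3.32 to 10.1 TPM in number 2 and at 45.8 to 55.9 TPM in number 1. As a share of the gene's TPM, NQO1-206 held 47.8% to 53.9% in number 2 and 42.3% to 46.4% in number 1, and NQO1-207 held 3.65% to 10.8% in number 2 and 15.0% to 18.9% in number 1. Both transcripts were thus lower in number 2, and the share of the intron-retaining one was also lower, without overlap between the numbers. Among the leading transcripts of each gene by mean TPM, some other intron-retaining ones also fell in share, while others rose or overlapped. The intron-retaining ABCC1-206 held 9.09% to 13.7% in number 2 and 20.2% to 23.8% in number 1. AKR1B1-204, TALDO1-206 and GSTP1-205 also fell without overlap. GCLC-207 went the other way, at 12.3% to 17.8% in number 2 and 2.43% to 7.92% in number 1, as did PRDX3-202. The shares of the intron-retaining transcripts of CAT, KEAP1, PRDX2 and TKT overlapped between the numbers. So did those of another such transcript each of AKR1B1 and PRDX3. All these shares are single-transcript estimates given as a description, with no test.

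Of 4 genes of glutathione synthesis and recycling, 2 were lower (50%, background 22.6%) and 1 was higher (25%, background 22.8%) in number 2. GCLM (ENSG00000023909.9, chromosome 1, 93885205 to 93909456, minus strand), the modifier subunit of glutamate-cysteine ligase, had 20.4, 23.9 and 19.4 CPM in number 2 and 35.0, 40.5 and 50.2 CPM in number 1. The catalytic subunit GCLC (chromosome 6, 53497341 to 53616970, minus strand) had 23.7, 23.2 and 21.8 CPM in number 2 and 31.6, 29.99 and 33.2 CPM in number 1. Neither gene overlapped between the numbers. The log2 fold change was -0.97 (SE 0.14, adjusted p = 0.00049 by edgeR) for GCLM and -0.46 (SE 0.11, adjusted p = 0.00699 by edgeR) for GCLC. On deposited TPM tested with limma both missed the threshold, GCLM at -0.57 (adjusted p = 0.072) and GCLC at -0.31 (adjusted p = 0.219). A transcript of GCLM without a coding sequence, GCLM-203, held 40.6% to 51.8% of its TPM in number 2 and 24.4% to 46.3% in number 1. GSS, the second enzyme of synthesis, was at -0.13 (SE 0.10, adjusted p = 0.319 by edgeR). GSR (ENSG00000104687.13, chromosome 8, 30678061 to 30727999, minus strand), the NADPH-dependent reductase that regenerates glutathione, had 96.9, 98.7 and 112 CPM in number 2 and 66.0, 60.8 and 61.0 CPM in number 1. Every library numbered 2 was above every one numbered 1, a log2 fold change of 0.71 (SE 0.09, adjusted p = 0.000298 by edgeR).

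Among the 9 genes of glutathione use and export, 3 were lower (33.3%, background 22.6%) and 2 higher (22.2%, background 22.8%) in number 2. The 3 microsomal glutathione transferases did not share a direction. MGST1 had 42.7, 41.0 and 39.4 CPM in number 2 and 70.3, 61.6 and 60.9 CPM in number 1, a log2 fold change of -0.64 (SE 0.09, adjusted p = 0.00049 by edgeR). MGST2 (ENSG00000085871.8, chromosome 4, 139665768 to 139740745, plus strand) had 29.6, 31.8 and 37.6 CPM in number 2 and 19.7, 16.2 and 17.8 CPM in number 1, a log2 fold change of 0.88 (SE 0.13, adjusted p = 0.000515 by edgeR). MGST2 was thus the gene of the 37 with the largest rise, and MGST3 was at 0.48 (SE 0.10, adjusted p = 0.00295 by edgeR). None of the 3 overlapped between the numbers. The cytosolic transferase GSTP1 was at -0.36 (SE 0.09, adjusted p = 0.0088 by edgeR) and GPX1 at -0.29 (SE 0.09, adjusted p = 0.0268 by edgeR). GPX4, which reduces lipid hydroperoxides and guards against ferroptosis, was at -0.10 (SE 0.09, 95% interval -0.30 to 0.11), and GLRX, GSTO1 and ABCC1 lay between -0.09 and 0.12 without passing.

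In the thioredoxin branch 5 of 9 genes (55.6%, background 22.6%) were lower in number 2, and the reductase that feeds it was higher. TXN, the thioredoxin itself, had 143, 135 and 139 CPM in number 2 and 251, 208 and 222 CPM in number 1, a log2 fold change of -0.70 (SE 0.08, adjusted p = 0.000158 by edgeR). TXNRD1 (ENSG00000198431.15, chromosome 12, 104215779 to 104350305, plus strand), the selenoprotein that reduces thioredoxin with NADPH, had 187, 179 and 185 CPM in number 2 and 122, 125 and 126 CPM in number 1. The 2 genes moved apart with no overlap in either, since the log2 fold change of TXNRD1 was 0.56 (SE 0.08, adjusted p = 0.000434 by edgeR). The 3 leading transcripts of TXNRD1 were each higher in number 2, TXNRD1-205 at 21.7 to 30.4 TPM in number 2 and 11.4 to 14.4 TPM in number 1, for example. SRXN1 (ENSG00000271303.1, chromosome 20, 646615 to 653370, minus strand), sulfiredoxin, repairs over-oxidised peroxiredoxins. It had 22.6, 22.9 and 27.0 CPM in number 2 and 53.3, 46.7 and 54.8 CPM in number 1, a log2 fold change of -1.09 (SE 0.10, adjusted p = 5.57e-05 by edgeR).

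The peroxiredoxins ranged from a clear fall to no detectable difference. PRDX1 had 316, 308 and 342 CPM in number 2 and 608, 464 and 531 CPM in number 1, with a log2 fold change of -0.72 (SE 0.09, adjusted p = 0.0003 by edgeR). PRDX6 followed at -0.44 (SE 0.09, adjusted p = 0.0039 by edgeR) and PRDX2 at -0.28 (SE 0.09, adjusted p = 0.0268 by edgeR). The mitochondrial PRDX3 was at -0.20 (SE 0.08, adjusted p = 0.0711 by edgeR) and PRDX5 at 0.00 (SE 0.11). PRDX4, the peroxiredoxin of the endoplasmic reticulum, had 75.5, 65.9 and 55.3 CPM in number 2 and 78.8, 69.8 and 79.2 CPM in number 1. Its number difference was thus -0.06 log2 units within ALKBH5 rescue, -0.08 within shALKBH5 and -0.52 within shCtrl, and over all 6 libraries it was at -0.22 (adjusted p = 0.121 by edgeR). Leaving out 1 library gave values between -0.29 and -0.06. It passed without the library labelled ALKBH5 rescue replicate 1 (-0.29, adjusted p = 0.00820 by edgeR) or replicate 2 (-0.29, adjusted p = 0.00720). Without that labelled shCtrl replicate 1 or 2 it was at -0.06 (adjusted p = 0.664 and 0.669).

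The NADPH-supplying enzymes were lower in number 2 for 3 of 4 genes (75%, background 22.6%). PGD (ENSG00000142657.20, chromosome 1, 10398592 to 10420144, plus strand), a dehydrogenase of the oxidative pentose phosphate pathway, had 201, 210 and 237 CPM in number 2 and 675, 653 and 650 CPM in number 1. Mean levels were 216 ± 18.5 CPM in number 2 and 659 ± 13.9 CPM in number 1 (SD, n = 3 each), 3.05-fold apart, and the log2 fold change was -1.61 (SE 0.09, 95% interval -1.81 to -1.41, adjusted p = 4.57e-06 by edgeR). This was the smallest p among the 37 genes. ME1, cytosolic malic enzyme, had 56.3, 58.5 and 51.0 CPM in number 2 and 97.6, 90.4 and 102 CPM in number 1, a log2 fold change of -0.81 (SE 0.10, adjusted p = 0.00019 by edgeR). TKT, the transketolase of the non-oxidative branch, was at -0.59 (SE 0.09, adjusted p = 0.00062 by edgeR), and its neighbour in that branch, TALDO1, was at -0.22 (SE 0.09, adjusted p = 0.0649 by edgeR).

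Of the enzymes that remove superoxide and hydrogen peroxide, 1 of 3 was higher (33.3%, background 22.8%) and none lower (background 22.6%) in number 2. SOD2 (ENSG00000112096.17, chromosome 6, 159669057 to 159745186, minus strand) had 717, 718 and 710 CPM in number 2 and 468, 504 and 482 CPM in number 1. The numbers lay well apart, with a log2 fold change of 0.56 (SE 0.08, adjusted p = 0.000558 by edgeR). SOD2 is known as a target of NF-κB as well as an antioxidant enzyme. The cytosolic dismutase SOD1 was at -0.17 (SE 0.10, adjusted p = 0.186 by edgeR). Catalase, CAT, had 151, 148 and 161 CPM in number 2 and 179, 164 and 166 CPM in number 1 without overlap, but its log2 fold change of -0.14 (SE 0.08) did not pass (adjusted p = 0.177 by edgeR).

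Of the 23 calls, 15 held under all 14 alternatives tried and none changed sign. Several small differences rested on particular libraries or on the test. DESeq2 gave an adjusted p of 0.0573 for MAFG and 0.106 for AKR1C3. On deposited TPM, limma gave 0.23 for AKR1C3, 0.0555 for GPX1 and 0.0841 for PRDX2, and with protein-coding transcripts only edgeR gave 0.054 for PRDX2. Without the library labelled shALKBH5 replicate 1, edgeR adjusted p was 0.344 for MAFG, 0.0653 for AKR1C3, 0.0524 for GCLC, 0.182 for GPX1, 0.0999 for GSTP1, 0.0674 for MGST3 and 0.21 for PRDX2. Without that labelled shALKBH5 replicate 2 it was 0.361 for MAFG, 0.0706 for AKR1C3, 0.0558 for GCLC, 0.196 for GPX1, 0.104 for GSTP1, 0.055 for MGST3 and 0.217 for PRDX2. MAFG also lost its call without any 1 of the other 4 libraries (adjusted p = 0.0683 to 0.0707). AKR1C3, GPX1 and PRDX2 lost theirs without either library labelled ALKBH5 rescue (adjusted p = 0.0778 to 0.107). PRDX3 gained a call without either library labelled shCtrl (adjusted p = 0.0475 and 0.0493). The number difference was found in each group, and its size varied. The median over the 37 genes, as a difference of log2 CPM of number 2 minus number 1, was -0.36 within ALKBH5 rescue, -0.21 within shALKBH5 and -0.13 within shCtrl, with 29, 25 and 23 genes negative. Over all genes tested these medians were 0.02, -0.00 and 0.00. Whether the groups differ in this was not tested.

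Antioxidant response elements share a core of the letters TGACNNNGC, where N is any base. RefSeq promoter windows of GRCh38.p14, 250 bases before to 50 bases after a gene's start, were searched for this core on both strands. A window was found for 30 of the 37 genes, and GSS, PRDX6, MGST2, PRDX1, ABCC1, SOD1 and GSR had none in the table. The core was in the windows of 8 of 30 genes (26.7%) and of 4384 of 27305 genes in the whole table (16.1%), and counted by window in 20% and 13.3%. Of genes lower in number 2 with a window, 5 of 15 held it, of those higher 1 of 4 and of those not called 2 of 11. The lower genes without a core in their windows were NQO1, SRXN1, OSGIN1, TXN, TKT, GCLC, AKR1C3, GPX1, PRDX2 and MAFG. The higher ones without it were MGST3, SOD2 and SQSTM1. The stretches below are shown because they hold a core and belong to genes described above in each of these classes. They run 5′ to 3′ on the gene's strand, with the core in capitals, and a core that lies on the opposite strand appears as its reverse complement.
PGD, lower in number 2, chr1:10398847-10398887, plus strand: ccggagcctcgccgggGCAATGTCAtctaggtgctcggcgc
GCLM, lower in number 2, chr1:93909440-93909480, minus strand: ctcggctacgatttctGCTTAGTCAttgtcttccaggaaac
ME1, lower in number 2, chr6:83431164-83431204, minus strand: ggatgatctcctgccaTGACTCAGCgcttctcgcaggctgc
GSTP1, lower in number 2, chr11:67583730-67583770, plus strand: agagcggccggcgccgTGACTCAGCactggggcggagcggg
KEAP1, not called, chr19:10502778-10502818, minus strand: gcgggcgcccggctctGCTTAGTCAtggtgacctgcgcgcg
TXNRD1, higher in number 2, chr12:104286914-104286954, plus strand: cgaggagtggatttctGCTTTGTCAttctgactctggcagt

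The core of GCLM ends 26 bases and that of KEAP1 ends 23 bases before the RefSeq start, and both spell the same 9 letters. The leading transcript often starts elsewhere. Relative to the RefSeq start of the window shown, with minus for upstream, it starts at -125 for KEAP1, -217 for GSTP1 and -350 for TXNRD1. For GCLM it is at -26, for ME1 at -20 and for PGD at 16. The cores shown for KEAP1, GSTP1 and TXNRD1 thus lie downstream of the start of the leading transcript, and that of GCLM ends at it. Leading means highest mean TPM, which was a near tie for KEAP1 and TXNRD1. KEAP1-202 was at 35.5 TPM and KEAP1-201 at 34.7 TPM, TXNRD1-205 at 19.4 TPM and TXNRD1-206 at 19.2 TPM. The starts of KEAP1-201 and TXNRD1-206 were not compared with the cores. GSTP1 and ME1 share their 9 letters as well, and these contain TGACTCA, the site of AP-1, so the motifs overlap. PGD and TXNRD1, which moved in opposite directions, both hold a core. GSTO1 and MGST1 had a match too. A match is a description of letters, not evidence of binding, and a window without one says nothing on elements farther away.

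Beyond the 37 genes, 75 further genes of the same pathways were listed, of which BACH2, GPX8, SOD3 and AKR1B10 did not pass the filter on low counts. Of the other 71, 29 (40.8%) passed in the comparison of numbers (14 higher, 15 lower), with a median log2 fold change of -0.02. This is near the background of 45.4%. Of the NRF2 control genes 2 of 11 were higher (18.2%, background 22.8%) and 2 lower (18.2%, background 22.6%). TRIM16, a ubiquitin ligase linked to NRF2, had 12.5, 11.9 and 13.4 CPM in number 2 and 23.6, 24.7 and 21.5 CPM in number 1 (log2 fold change -0.88, SE 0.12, adjusted p = 0.000434 by edgeR). The small MAF gene MAFF was at -0.76 (SE 0.14), and the NRF2 relatives NFE2L1 and NFE2L3 at 0.38 (SE 0.08) and 0.96 (SE 0.21). NFE2L3 was uneven within number 2, at 85.9, 72.8 and 44.6 CPM, against 27.3, 36.3 and 38.8 CPM in number 1.

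In cystine supply and glutathione turnover 1 of 7 was higher (14.3%, background 22.8%) and 4 were lower (57.1%, background 22.6%). CHAC1, which degrades glutathione and is a target of the ATF4 stress response, had 23.6, 26.6 and 28.5 CPM in number 2 and 7.73, 6.46 and 7.96 CPM in number 1. That is a log2 fold change of 1.82 (SE 0.13, adjusted p = 1.59e-05 by edgeR), without overlap. Its relative CHAC2 was at -0.76 (SE 0.21), OPLAH, which recovers glutamate from 5-oxoproline, at -0.76 (SE 0.09) and the gamma-glutamyltransferase GGT1 at -0.36 (SE 0.11). CHAC2 was at 1.72 to 2.99 CPM in number 2 and 3.56 to 4.27 CPM in number 1, and lost its call without either library labelled shCtrl (adjusted p = 0.0585 without replicate 1 and 0.0547 without replicate 2). With DESeq2 the adjusted p was 0.126 for CHAC2, 0.102 for GGT1 and 0.051 for NFE2L3. With protein-coding transcripts only, GGT1 was at -0.12 (adjusted p = 0.421).

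Other enzymes of thiol repair and peroxide removal gave 4 higher (21.1%, background 22.8%) and 3 lower (15.8%, background 22.6%) of 19. SESN2, a stress-induced sestrin, had 40.5, 42.2 and 46.2 CPM in number 2 and 13.2, 12.2 and 11.7 CPM in number 1 (log2 fold change 1.79, SE 0.12, adjusted p = 1.05e-05 by edgeR). MSRB1, a selenoprotein that repairs oxidised methionine, had 43.1, 43.5 and 49.96 CPM in number 2 and 117, 107 and 114 CPM in number 1 (log2 fold change -1.31, SE 0.09, adjusted p = 1.25e-05 by edgeR). The numbers did not overlap in either gene. TXNIP, which binds and inhibits thioredoxin, was at 0.62 (SE 0.08) and the mitochondrial glutaredoxin GLRX5 at -0.48 (SE 0.09).

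Detoxification enzymes and exporters outside the 37 gave 5 higher (22.7%, background 22.8%) and 4 lower (18.2%, background 22.6%) of 22, near the background. AKR1C2 was at -1.22 (SE 0.10), with the same uncertainty from near-identical relatives as AKR1C3, the exporter ABCC3 at -0.92 (SE 0.14), the carbonyl reductase CBR1 at -0.36 (SE 0.10) and the mitochondrial transferase GSTK1 at 0.33 (SE 0.09). ABCC3 was no longer called when only protein-coding transcripts were summed (-0.46, adjusted p = 0.194). Of the NADPH genes 2 of 12 were higher (16.7%, background 22.8%) and 2 lower (16.7%, background 22.6%). PGLS, a lactonase of the oxidative pentose phosphate pathway, had 67.4, 65.9 and 71.5 CPM in number 2 and 48.8, 41.8 and 49.97 CPM in number 1, without overlap. Its log2 fold change was 0.55 (SE 0.09, adjusted p = 0.00119 by edgeR), while PGD was lower. IDH2, the mitochondrial NADP-dependent isocitrate dehydrogenase, was at 0.24 (SE 0.09, adjusted p = 0.0495 by edgeR). It missed the threshold with DESeq2 (adjusted p = 0.0677), with RLE size factors (0.0608), without either library labelled shALKBH5 (0.374 for replicate 1 and 0.329 for replicate 2) and without either labelled shCtrl (0.175 and 0.173). RPIA and MTHFD1 were both at -0.35 (SE 0.09 and 0.08). Without the library labelled shALKBH5 replicate 1 the calls of NFE2L1, GGT1, CBR1, GSTK1, RPIA and MTHFD1 were lost (adjusted p = 0.077 for NFE2L1, 0.21 for GGT1, 0.175 for CBR1, 0.123 for GSTK1, 0.182 for RPIA and 0.137 for MTHFD1). They were also lost without that labelled shALKBH5 replicate 2 (adjusted p = 0.0588, 0.226, 0.172, 0.096, 0.184 and 0.142 in the same sequence), and that of GSTK1 without either library labelled shCtrl (0.0642 and 0.0653).

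**Figure D3:**
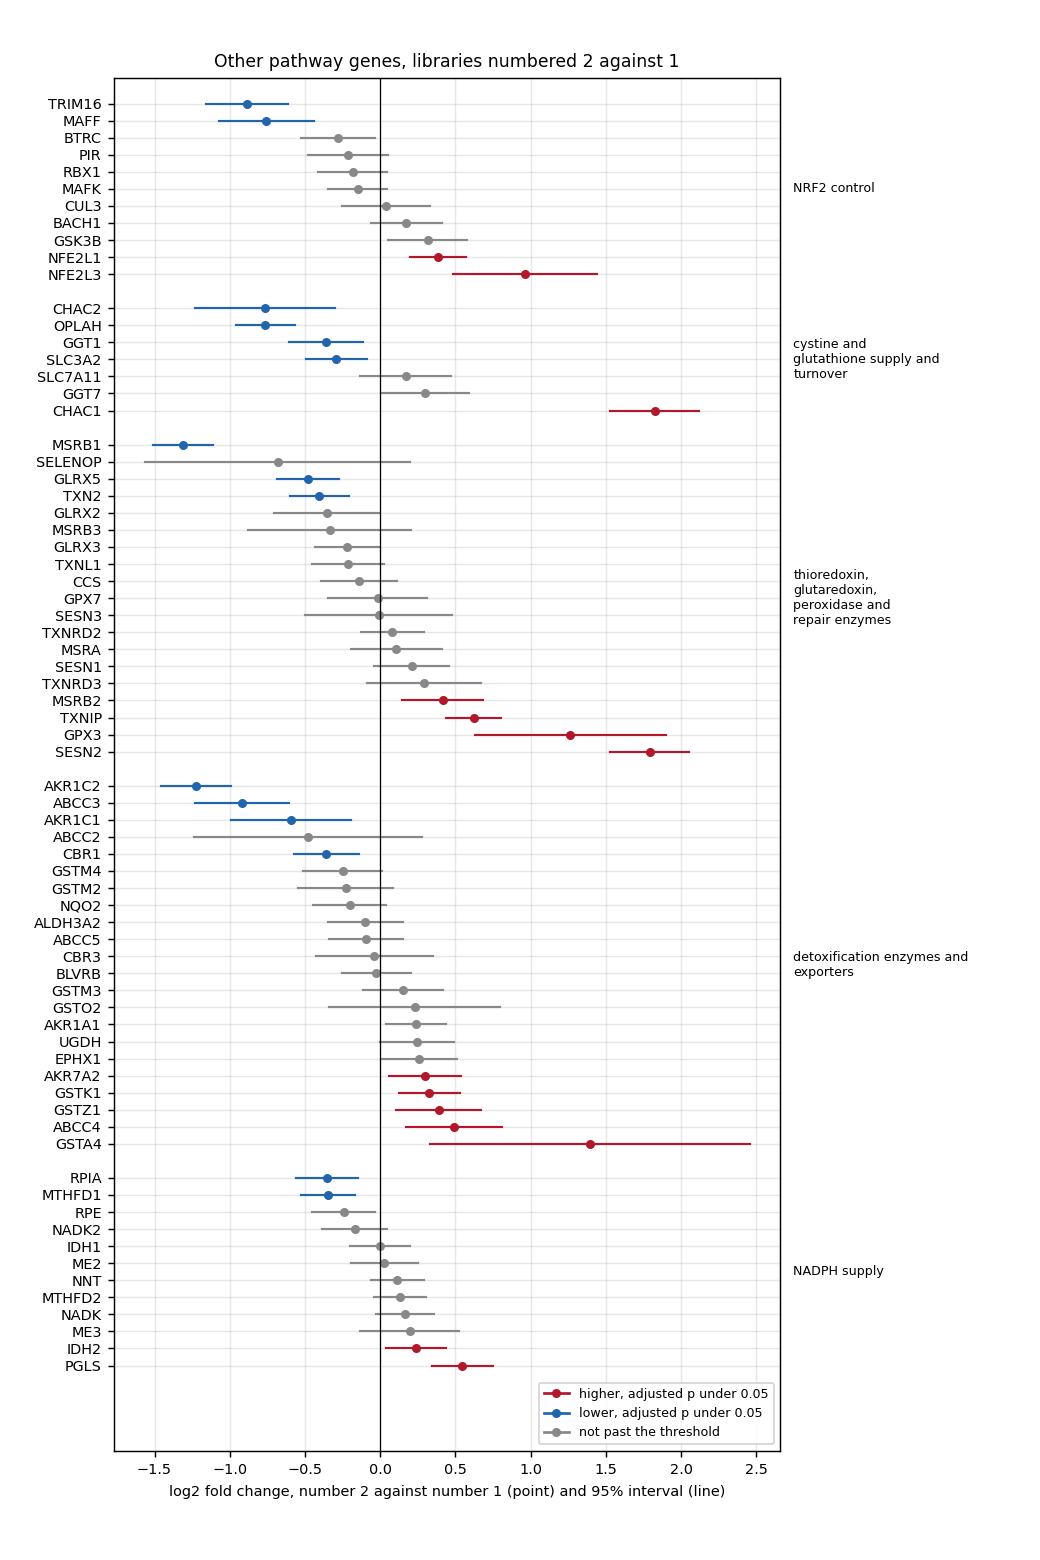
Log2 fold change of the 71 further pathway genes tested, in the libraries numbered 2 against those numbered 1, with 95% intervals, drawn and coloured as for the 37 genes. CHAC1 at 1.82 and SESN2 at 1.79 lie farthest to the right and MSRB1 at -1.31 farthest to the left, and 42 of the genes are grey.

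The group labels set knock-down and restoration of ALKBH5 against the control, so the second question was whether the antioxidant genes differ along these labels. ALKBH5 itself did not follow them, so the comparisons are between libraries as labelled and do not show what loss or return of ALKBH5 does. No difference was detected along the labels. Between the libraries labelled shALKBH5 and shCtrl, 0 of 37 genes passed by edgeR, by DESeq2 or by limma-voom, and 0 had an unadjusted p under 0.05 by edgeR. The background was 0.0% of genes tested, and 38 of all genes had an unadjusted p under 0.05. For ALKBH5 rescue against shALKBH5 the count was again 0 of 37 (0 at an unadjusted p under 0.05, background 0.0%), and likewise for ALKBH5 rescue against shCtrl (background 0.0%). In both, neither DESeq2 nor limma-voom called any of the 37. The difference between numbers enters the error of these fits. With replicate number as a block, all 3 comparisons still called 0 of 37, where the background was 0.0069%, 0.0% and 0.0069%. The unadjusted p was then under 0.05 for 0, 0 and 1 of the 37, and for 347, 290 and 239 of all genes. The 95% intervals of the 37 genes with the block lay between -0.63 and 0.35 for shALKBH5 against shCtrl, between -0.60 and 0.60 for ALKBH5 rescue against shALKBH5 and between -0.69 and 0.51 for ALKBH5 rescue against shCtrl.

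ABCC1 had the smallest p of the 37 in the comparisons of shALKBH5 and of ALKBH5 rescue with shCtrl. In the libraries numbered 2 and 1 it had 24.1 and 23.4 CPM in ALKBH5 rescue, 26.4 and 24.6 CPM in shALKBH5 and 32.2 and 27.6 CPM in shCtrl. Both libraries labelled shALKBH5 and both labelled ALKBH5 rescue lay below both labelled shCtrl. The log2 fold change was -0.23 (SE 0.19) for shALKBH5 and -0.34 (SE 0.19) for ALKBH5 rescue, each against shCtrl, with adjusted p = 1 by edgeR for both. With the block the second was -0.33 (SE 0.13, 95% interval -0.62 to -0.04, unadjusted p = 0.0295, adjusted p = 1 by edgeR). The next smallest p in shALKBH5 against shCtrl was that of GPX4, which had 145 and 146 CPM in shALKBH5 and 163 and 158 CPM in shCtrl, a log2 fold change of -0.14 (SE 0.18).

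PRDX4 led the comparison of ALKBH5 rescue with shALKBH5 and came second in that of ALKBH5 rescue with shCtrl. In numbers 2 and 1 it had 75.5 and 78.8 CPM in ALKBH5 rescue, 65.9 and 69.8 CPM in shALKBH5 and 55.3 and 79.2 CPM in shCtrl. Its log2 fold changes of 0.19 (SE 0.22) against shALKBH5 and 0.20 (SE 0.22) against shCtrl did not pass (adjusted p = 1 by edgeR for both), and the value against shCtrl was -0.04 without the library labelled shCtrl replicate 2. GLRX, a glutaredoxin, had 19.4 and 24.9 CPM in ALKBH5 rescue and 20 and 19.5 CPM in shALKBH5, a log2 fold change of 0.16 (SE 0.21). It was at -0.03 without the library labelled ALKBH5 rescue replicate 1.

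Libraries of the compared groups were apart for few of the 37 genes. Each group holds 1 library of each number, so a gene that differs between the numbers overlaps between groups unless the group difference is larger. The shares that follow are therefore not read as a result about the groups. For shALKBH5 against shCtrl 5 genes (13.5%) did not overlap, AKR1B1, GPX4, GLRX, ABCC1 and SOD1, where 17.5% of all genes did not. For ALKBH5 rescue against shALKBH5 these were 3 genes (8.11%), NFE2L2, ABCC1 and PRDX4, against 11.9% of all genes, and for ALKBH5 rescue against shCtrl 1 gene, ABCC1 (2.7%), against 10.1%. Within each replicate number the groups can be set side by side, 1 library against 1, with no test. From shALKBH5 minus shCtrl the median difference of log2 CPM over the 37 genes was -0.12 in number 2 and -0.07 in number 1, beside -0.05 and -0.00 over all genes tested, and 24 genes (64.9%) were lower in both numbers, 2 (5.41%) higher in both and 11 (29.7%) opposite. Of all genes tested 32.2% were lower in both, 23.8% higher in both and 43.8% opposite. The same median for ALKBH5 rescue minus shALKBH5 was -0.03 in number 2 and 0.15 in number 1, beside 0.00 and 0.00 over all genes tested, with 25 genes (67.6%) opposite, as were 55.3% of all genes. For ALKBH5 rescue minus shCtrl it was -0.16 in number 2 and 0.11 in number 1, beside -0.06 and -0.00 over all genes tested, with 29 genes (78.4%) opposite, as were 65.2% of all genes. The comparisons share libraries, so their values are not independent of each other.

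**Figure D4:**
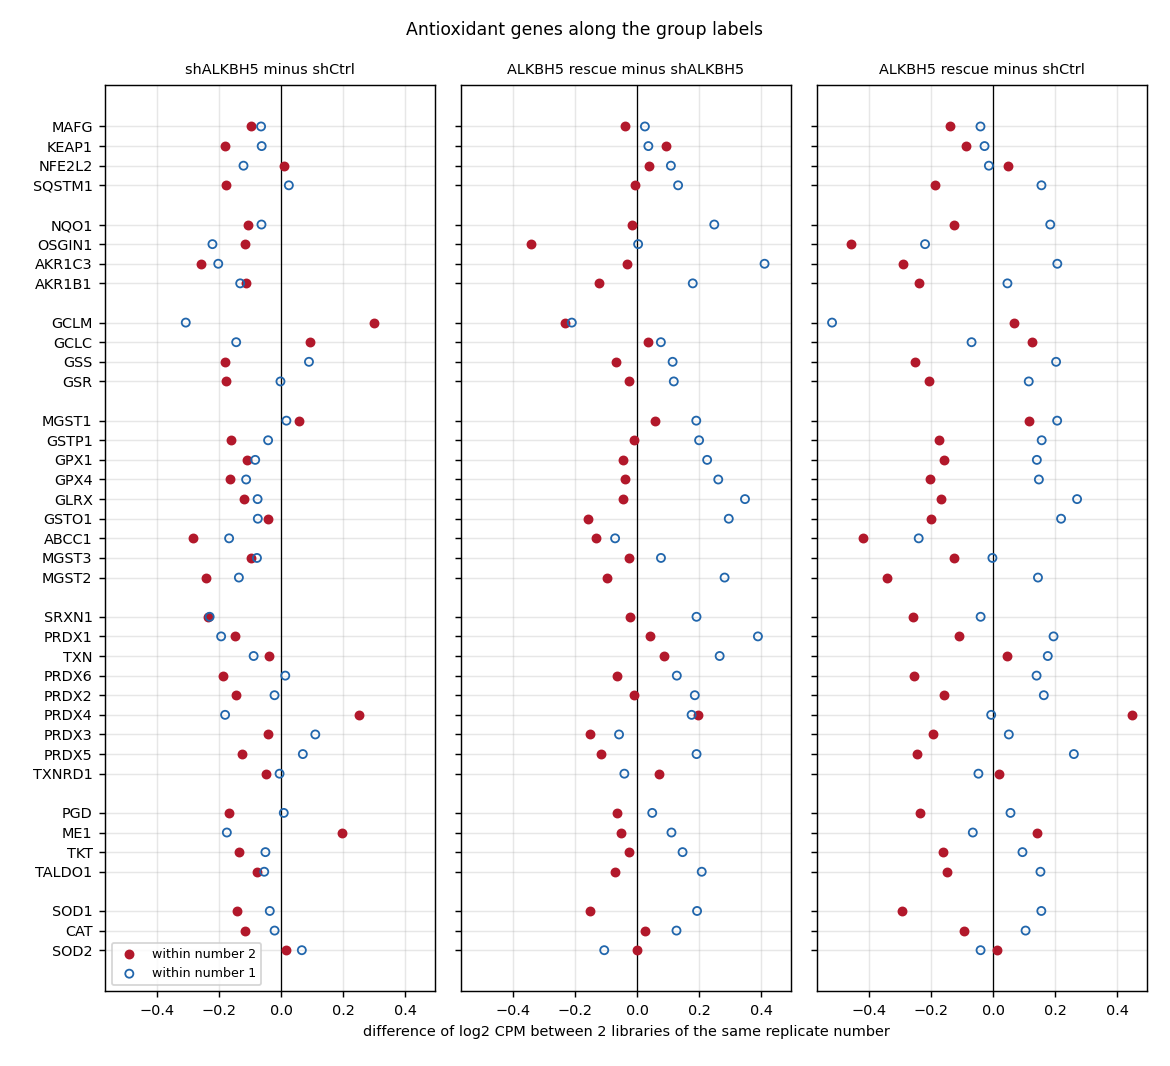
Difference of log2 CPM between 2 libraries of the same replicate number for each of the 37 genes, with filled red points for number 2 and open blue points for number 1. The panels show shALKBH5 minus shCtrl, ALKBH5 rescue minus shALKBH5 and ALKBH5 rescue minus shCtrl. All points lie between -0.52 and 0.45, and in the panel of ALKBH5 rescue minus shALKBH5 32 of the blue points but 9 of the red ones are above 0.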

How the data were processed

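For 179973 Ensembl transcripts the deposited tables hold 1 estimated count and 1 TPM value each. The submitters' processing notes name CASAVA, kallisto 0.43.1 and the build hg38. The sources used here give no strand setting, options or molecular identifiers. kallisto divides shared reads among transcripts by an estimate, so near-identical genes have uncertain counts, and any interval covers only the spread between libraries. Estimated counts, as the authors deposited them, were added up by gene with GENCODE release 29, which matched 163714 transcripts (91.0%), and rounded. The 16259 unmatched transcripts held 3.13% to 3.32% of counts per library and were left out. A second SOD2 record (0 to 0.31 CPM) was left out too. The deposited TPM values were summed per gene for levels and for 1 alternative.

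Tests used edgeR 4.0.16 under R 4.3.3 (TMM, filterByExpr, quasi-likelihood test, all 6 libraries) and adjusted over 14497 genes. The number comparison had group and number as terms (2 residual degrees of freedom), and the group comparisons had group alone (3). In the number comparison, leaving out 1 library also takes its group partner out of the number difference. The SE is the absolute log2 fold change over the square root of F, and log2 CPM for differences between 2 libraries used a prior count of 2. Numbers pair the libraries by their values. Deviations from group means correlated at 0.597 to 0.727 between same-numbered libraries, which with 2 libraries a group are 3 separate values. The biological coefficient of variation was 10.6% with the block and 27.7% without it. The chi-square per gene was at least 3.31 between libraries of the same number, so none was taken as a copy. Alternatives were RLE factors, DESeq2 1.42.0, limma-voom (limma 3.58.1), no filter, a filter of 1 CPM in 2 libraries, protein-coding transcripts only, limma on log2(TPM + 1), no group term, the block, and leaving out each library.

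The 37 genes and the lists were chosen with earlier results of these data known. All 37 could be named. Values per library were given for 7 fixed genes, for the smallest p per role and direction and for the 2 smallest p per group comparison, with OSGIN1, TXN, PRDX1 and ME1 added after their values were seen. Up to 4 further pathway genes per list were named by p. Gene coordinates are those of GENCODE. An entry of the further pathway lists is not reported here.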

Additional observations from a re-analysis of the deposited data

How the results depend on the processing

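Leaving out each library in turn gave 3915 to 6811 genes called between the replicate numbers, against 6585 with all libraries, with the lowest counts of 3915 and 4030 without the libraries labelled shALKBH5 replicate 1 and shALKBH5 replicate 2. The 37 genes gave 16 to 23 calls under the same omissions. With DESeq2 21 of the 37 were called, beside 4781 of all 14497 genes tested. With limma on log2(TPM + 1) 17 were called, beside 4683 of 14497. With protein-coding transcripts only 21 were called, beside 5363 of 13052, and without the group term 26, beside 7276 of 14497. Of the 23 called genes 8 lost their call under at least 1 of 14 alternatives and 4 uncalled ones gained one, and the cause was not tested. Sign changes were confined to genes without a call. With RLE factors AKR1B1 was at -0.0003 and PRDX5 at -0.0002, and with DESeq2 AKR1B1 was at -0.0002. On log2(TPM + 1) GPX4 was at 0.0335, GSTO1 at 0.10 and ABCC1 at -0.17. GSTO1 was at 0.0104 without a filter and at 0.0086 with protein-coding transcripts only. Leaving out 1 library gave -0.0021 to 0.0777 for NFE2L2, -0.0508 to 0.11 for AKR1B1, -0.15 to 0.0222 for GPX4, -0.11 to 0.13 for GSTO1, -0.16 to 0.0659 for GLRX and -0.10 to 0.15 for PRDX5.

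With the replicate block edgeR called 1 gene between shALKBH5 and shCtrl and 1 between ALKBH5 rescue and shCtrl, against 0 without it, and DESeq2 with the block called 1 between shALKBH5 and shCtrl. None was among the 37 genes, and the block changed no other call. In the group comparisons without the block, leaving out 1 library leaves 1 against 2, which brings the number difference into the contrast. In these fits GLRX ranged from -0.0261 to 0.3216 in ALKBH5 rescue against shALKBH5 and PRDX4 from -0.0362 to 0.4737 in ALKBH5 rescue against shCtrl. Depth and 2 libraries per group limit the precision to the intervals given above.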
